A study of Mus musculus with 4 samples.

Results

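The nuclear and mitochondrial genes of the respiratory chain were compared between proliferating and hypertrophic chondrocytes of mouse forelimb cartilage. Members were all protein-coding genes of the annotation whose symbols name subunits of the 5 respiratory complexes, or begin with the same letters as those subunits, a rule that reads symbols and no measured value, though it was set with earlier results of these data known. The tables held 34547 genes, and 107 of them were members. They comprised 13 subunits encoded by mitochondrial DNA, 84 nuclear-encoded subunits and 10 further nuclear genes, which were 8 assembly factors of complex I, the ATP synthase-associated gene Atp5s and Cox7a2l. The symbol Atp5o belongs to 2 entries. In 102 members the counts were high enough for a test, and the 5 others were Cox6a2, Cox7b2, Cox8b, Cox8c and the second Atp5o.

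PC stands for primary proliferating chondrocytes of E14.5 embryos (replicates 1 and 2) and HC for primary hypertrophic chondrocytes of E15.5 embryos (replicates 3 and 4). All 4 libraries are from C57BL/6 mice with no stated genetic change or treatment. The cells were cut by laser from frozen sections, and libraries were made from 10 ng of RNA with a kit intended for degraded material. Cell state and embryonic age change together, so an effect of the one cannot be told apart from an effect of the other. Nothing in the labels says that the libraries of a group came from separate embryos, so the p-values measure only the spread between these libraries, which may be technical.

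The respiratory chain sits in the inner mitochondrial membrane and passes electrons from NADH (complex I) and succinate (complex II) through ubiquinone, complex III and cytochrome c to oxygen at complex IV. The proton gradient built on the way drives ATP synthase, complex V. Complexes I, III, IV and V each join subunits made inside the mitochondrion with subunits made from nuclear genes and imported, while complex II is wholly nuclear-encoded. Cartilage has no blood vessels, and growth plate chondrocytes are known for living at low oxygen and for their use of glycolysis. All protein-coding mitochondrial genes but mt-Nd6 are read from 1 strand as long precursors that are then cut apart.

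Libraries held 15246529 to 36644496 estimated counts, with the HC libraries the shallower ones. HC replicate 3 stood apart, with 8.78% of its counts on the gene model Gm10800 against 1.76% to 2.68% in the others, and with the effective length of transcripts closest to the annotated length. Markers listed for hypertrophic cells were called higher for 3 of 5 genes, beside 2.75% of all genes. Of 5 markers of proliferating cells 2 were called lower, beside 1.96%, as the labels say. The 6 chondrocyte markers summed to 55081 and 42941 CPM (counts scaled to a common library size) in PC and 30297 and 37545 CPM in HC. None had a positive log2 fold change, 5 were lower in both HC libraries and 0 were called. Summed markers of other cell types were also higher in HC. The summed level of 14 skeletal muscle markers was 35.8 and 53.4 CPM (counts scaled to a common library size) in PC replicates 1 and 2 and 641 and 155 CPM in HC replicates 3 and 4. In the same order, 8 red blood cell markers summed to 24.8, 43.1, 332 and 306 CPM, 6 macrophage markers to 6.89, 13.2, 148 and 55.8 CPM, 6 endothelial markers to 24.4, 21.6, 237 and 126 CPM and 5 osteoblast markers to 409, 775, 9651 and 3347 CPM. Called higher in HC were 2 of 12 muscle, 4 of 7 red blood cell, 2 of 5 macrophage, 2 of 5 endothelial and 0 of 4 osteoblast markers tested. The share of all genes called higher was 2.75%. All 12 muscle markers tested had positive log2 fold changes. The 2 not tested were the muscle regulators Myod1, with 1 and 5 counts in PC and 0 in both HC libraries, and Myog, with 3 and 9 in PC and 39 and 0 in HC replicates 3 and 4. The part of these cells, of RNA quality and of HC replicate 3 in the results that follow was not tested, except where values without that library are given.

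A single respiratory chain gene passed the test. With edgeR's quasi-likelihood test, adjusted by Benjamini-Hochberg over all 16607 genes at 0.05, 0 of the 102 members tested were higher in HC, beside 2.75% of all genes. In the other direction 1 member, Ndufa4l2, was lower, beside 1.96% of all genes. At an unadjusted p under 0.05 there were 11 members, beside 27% of all genes. DESeq2, on the same counts of 106 members, called 3 higher and 3 lower, beside 9.25% and 8.17% of the genes it tested. They were mt-Atp6, mt-Co1 and Cox7a2l in the one direction and Ndufa4l2, Cox6b2 and Uqcr11 in the other. In 26 members both HC libraries lay above both PC libraries and in 30 both lay below, which is 25.5% and 29.4% of those tested, beside 27.7% and 33.3% of all genes. By these counts the shares were near or under those of all genes. The median log2 fold change of HC over PC was -0.03 for the members and -0.04 for all genes tested. Without HC replicate 3, 8 members were called lower and 0 higher, and without HC replicate 4 18 were lower and 14 higher, beside 15.2% and 13.1%, and 20.7% and 18.3%, of all genes. Without PC replicate 1 or PC replicate 2, 1 and 2 members were lower and 0 higher, beside 1.41% and 2.98% of all genes lower and 2.09% and 3.29% higher. With a length offset 0 members passed, beside 1.61% of all genes higher and 0.994% lower. Limma on log2(TPM + 1) called 0 higher and 2 lower (Ndufa4l2 and Cox6b2), beside 0.445% and 1.45%. A group left with 1 library is there assumed to vary like the other group.

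Behind that median the genes of the 2 genomes had different medians. All 13 mitochondrial genes had a positive log2 fold change, from 0.31 for mt-Co3 to 1.37 for mt-Atp6, with a median of 0.97. The 79 nuclear-encoded subunits tested had a median of -0.08, with 33 above 0 and 46 below. In bulk RNA of this kind, fewer cells of a type and less RNA per cell cannot be told apart, nor can more mitochondria and more RNA in each.

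**Figure D1:**
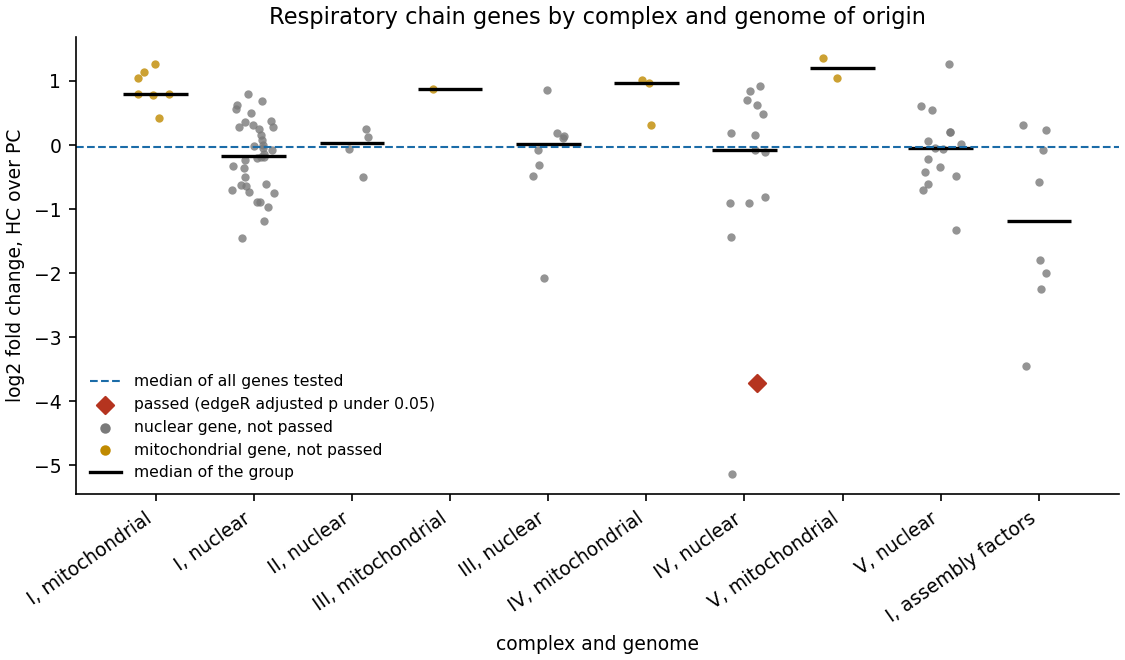
Log2 fold change of HC over PC (vertical axis) for each tested subunit and complex I assembly factor, grouped by complex and genome (horizontal axis), with points spread sideways only for legibility. Black bars are group medians and the dashed line is the median of all genes; the mitochondrial groups lie above it and the single gene that passed, Ndufa4l2, is at -3.72.

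Complex I takes 7 of the mitochondrial genes, which encode the membrane arm that pumps protons. mt-Nd1, the subunit at the joint with the matrix arm, had PC values of 9499.7 and 14398 CPM and HC values of 32358 and 17075 CPM. mt-Nd2, with PC values of 6988 and 11346 CPM and HC values of 28878 and 11347 CPM, and mt-Nd5, with PC values of 11709.6 and 21993 CPM and HC values of 35532 and 22425 CPM, are antiporter-like subunits of that arm. HC replicate 3 was far above the others for these 3 genes, while PC replicate 2 and HC replicate 4 were close, so that the groups were apart but by less than the libraries of a group differed. mt-Nd4, the remaining antiporter-like subunit, had PC values of 8172 and 15386 CPM and HC values of 17078 and 14540.0 CPM. Here PC replicate 2 lay above HC replicate 4 and the groups overlapped. Counts assigned to a nuclear copy of part of mt-Nd4, given further below, are not in these values. The small subunit mt-Nd3 had PC values of 1177 and 1161 CPM and HC values of 2549 and 1498 CPM, and mt-Nd4l, another one, had PC values of 2796 and 3849 CPM and HC values of 7425 and 4166 CPM. In both the groups were apart, and HC replicate 3 was again the highest. The log2 fold changes, each with its standard error (SE) over 2 libraries a group, were 1.05 ± 0.55 for mt-Nd1, 1.13 ± 0.62 for mt-Nd2, 0.79 ± 0.40 for mt-Nd3, 0.42 ± 0.51 for mt-Nd4, 0.80 ± 0.47 for mt-Nd4l and 0.78 ± 0.56 for mt-Nd5, and edgeR's adjusted p ran from 0.27 to 0.642.

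mt-Nd6 is the only protein gene on the other strand of mitochondrial DNA, and its last 14 bases overlap mt-Nd5. It had PC values of 4227 and 8201 CPM and HC values of 20763 and 8958 CPM, a log2 fold change of 1.26 ± 0.61 (adjusted p = 0.255 with edgeR). No source used here gives the strand setting of the counting, so its reads cannot be told apart from reads of the opposite strand. On the TPM scale, which takes transcript length into account, the mean levels of the 13 genes over the 4 libraries ran from 2735 for mt-Co3 to 34196 for mt-Atp8, with mt-Nd6 at 29773.

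mt-Cytb, the subunit of complex III that holds the ubiquinone sites, had PC values of 11278 and 19965 CPM and HC values of 36574 and 20776 CPM. HC replicate 4 was again just above PC replicate 2, and the log2 fold change was 0.88 ± 0.57 (adjusted p = 0.379 with edgeR). In complex IV mt-Co1, the catalytic subunit, had PC values of 6060.0 and 8034 CPM and HC values of 15318 and 12329.7 CPM, and both HC libraries stood clear of both PC libraries. mt-Co2, which takes electrons from cytochrome c, had PC values of 7496 and 12089 CPM and HC values of 26699 and 13023 CPM. mt-Co3, a core subunit without a redox centre, had PC values of 1344 and 1249 CPM and HC values of 1567 and 1639 CPM, and the groups were apart in both genes. The log2 fold changes were 0.97 ± 0.44, 1.02 ± 0.56 and 0.31 ± 0.33 in that order, with edgeR adjusted p of 0.224, 0.31 and 0.603.

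Complex V had the largest median of the mitochondrial groups, 1.21 over its 2 genes. mt-Atp6, the subunit of the proton channel, had PC values of 5434 and 6309 CPM and HC values of 20939.8 and 9319.5 CPM. Its log2 fold change was 1.37 ± 0.54 (adjusted p = 0.178 with edgeR), and it was the only one of the 13 with an unadjusted p under 0.05. mt-Atp8 had PC values of 1606 and 1086 CPM and HC values of 3779 and 1789.7 CPM, with 1.05 ± 0.49 (adjusted p = 0.24 with edgeR). The reading frames of the 2 genes overlap by 43 bases, so some of their reads are shared.

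**Figure D2:**
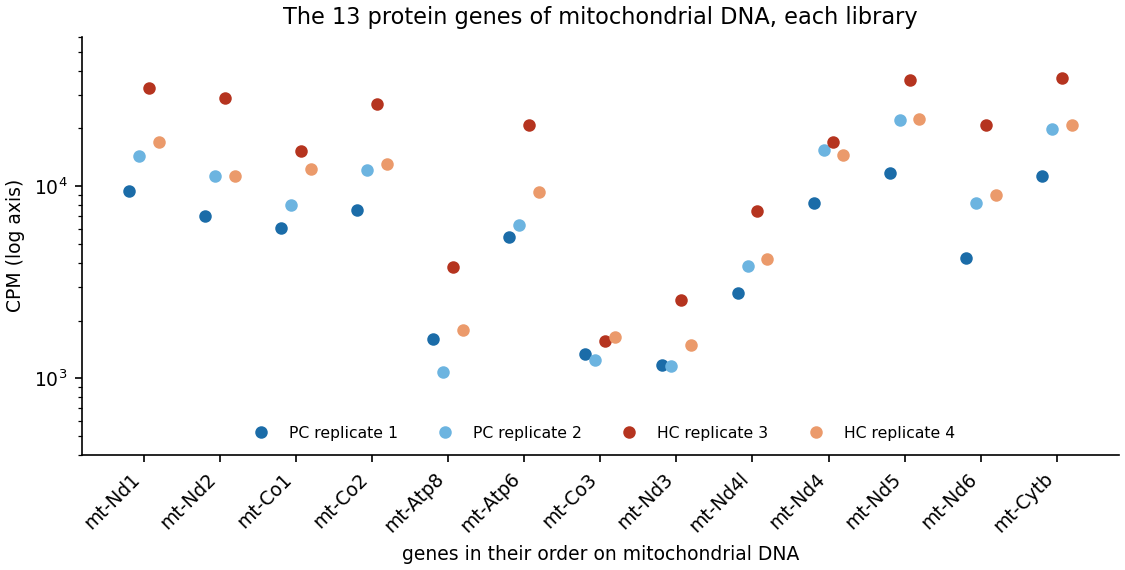
CPM on a log axis for each of the 13 mitochondrial protein genes in genome order, with 1 point per library. HC replicate 3 is the highest library for every gene but mt-Co3, and PC replicate 2 and HC replicate 4 are close for mt-Nd2, mt-Nd5 and mt-Cytb.

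The size of the mitochondrial difference moved with the library and with the scale. On the CPM scale, with nuclear copies left out, both HC libraries were above both PC libraries in 12 of 13 genes, all but mt-Nd4. The share of all genes was 27.7%. The mitochondrial genes share precursors and the same 4 libraries, so they are not independent observations and the 2 shares are no test. For mt-Nd2 the margin was 11346 CPM in PC replicate 2 against 11347 in HC replicate 4. On the TPM scale the groups were apart for mt-Nd1, mt-Nd6, mt-Co1, mt-Co2 and mt-Atp6 only, and overlapped for the other mitochondrial genes. HC replicate 3 was the highest library for 12 of 13, and without it the median log2 fold change was 0.38, with 13 of 13 still above 0. Without HC replicate 4 the median was 1.18, and mt-Nd1 (1.39), mt-Nd2 (1.61), mt-Nd6 (1.69), mt-Co2 (1.40), mt-Atp6 (1.79) and mt-Atp8 (1.44) were called higher, with edgeR adjusted p from 0.0121 to 0.0453, beside 18.3% of all genes. DESeq2 called mt-Atp6 and mt-Co1 over all libraries (adjusted p = 0.014 and 0.018). With TPM in place of scaled counts the median was 0.34 against -0.51 for all genes, and mt-Co3 and mt-Nd4 were below 0. The gap between the medians of the mitochondrial genes and the nuclear-encoded subunits was 1.05 over all libraries, 0.97 on the TPM scale and 0.70 without HC replicate 3.

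Part of the counts went to stretches of mitochondrial DNA copied into chromosome 1. Gm28439 (chr1:24611535-24612410 in mm10, GENCODE M21) is identical to bases 1 to 876 of mt-Nd4, counted from the start of that gene, and held 23931 and 13607 counts in PC and 143805 and 50568 in HC. mt-Nd4 itself held 281224 and 592720 counts in PC and 210376 and 322980 in HC. In CPM the copy was at 695 and 353 in PC and at 11674 and 2276 in HC. With these added to mt-Nd4, both HC libraries lay above both PC libraries. The overlap of the groups for mt-Nd4 thus depended on how the reads were split. Its values on the TPM scale and with the GC trend removed leave the copy out as well. Gm29216 (chr1:24615706-24616197) matches bases 1063 to 1545 of mt-Co1 with a single substitution, A1066T (the base of mt-Co1, its position from the start of that gene, the base of the copy). It held 61299 and 77702 counts in PC and 79586 and 94101 in HC. Counts of such sequences are split by an estimate that identical bases cannot inform, so their values are uncertain. Copies of at least 99% identity took 0.282% and 0.251% of all counts in PC and 1.54% and 0.767% in HC. With the copies added to their mitochondrial genes, the median of the 13 was 1.05, and 0 of 13 passed edgeR's test.

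The balance of the 2 genomes was higher for the mitochondrial side in both HC libraries. Summed TPM of the 13 mitochondrial genes was 19.7 and 23.6 times that of the 94 nuclear members in PC and 40.1 and 31.5 times in HC. The groups did not overlap, and the difference was 0.72 on the log2 scale (two-sided exact permutation test over the libraries, p = 0.333, the smallest that 2 against 2 allows). It ranged from 0.55 without HC replicate 3 to 0.90 without HC replicate 4, and was 0.88 with counts in place of TPM. As a share of all counts the mitochondrial genes made 8.86% and 13.2% in PC and 20.2% and 14.2% in HC. The nuclear members made 0.48% and 0.462% in PC and 0.404% and 0.395% in HC. The mitochondrial side was thus higher and the nuclear side lower in HC as shares of the whole. Neither share overlapped between groups, and each had an exact permutation p of 0.333. Shares of the same total are not independent, so a higher share of some genes lowers the shares of the rest. Scaled to CPM, the nuclear-encoded subunits summed to 4032 and 4118 in PC and 4640 and 3488 in HC, and the groups overlapped. The mitochondrial share differed by 6.16 percentage points, and by 7.08 with the counts of Gm10800 left out. It differed by 3.13 points without HC replicate 3, 9.19 without HC replicate 4, 3.98 without PC replicate 1 and 8.34 without PC replicate 2.

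**Figure D3:**
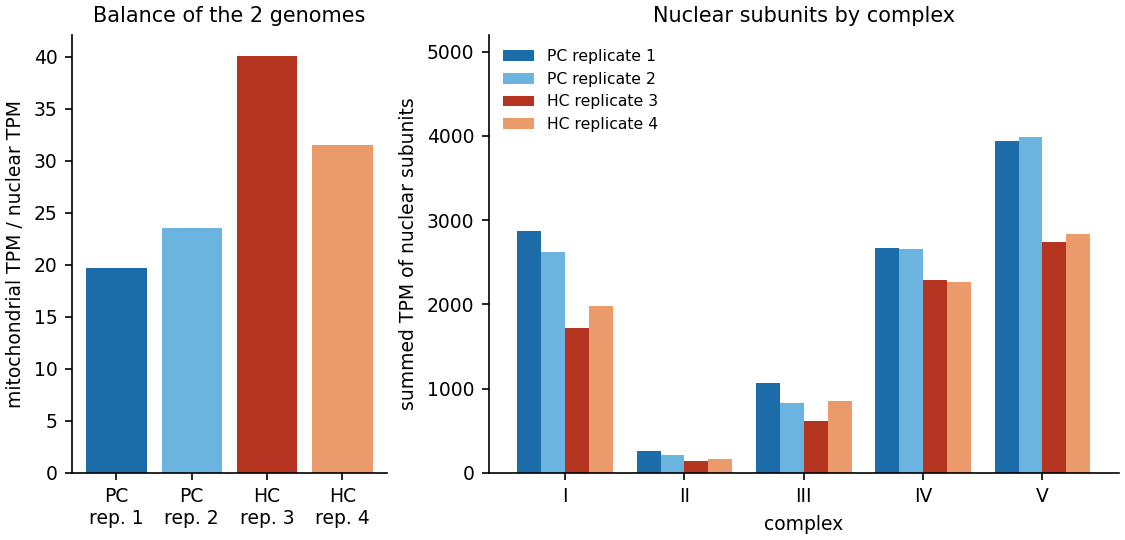
Left, summed TPM of the 13 mitochondrial genes divided by that of the 94 nuclear members in each library, with both HC libraries (40.1 and 31.5) above both PC libraries (19.7 and 23.6). Right, summed TPM of nuclear-encoded subunits of complexes I to V in each library. On this scale HC is below PC in complexes I, II, IV and V, and overlaps PC in complex III. The median log2 fold change of all genes is itself -0.51 on the TPM scale. The CPM sums of complexes I, II and IV overlap, while HC is below PC in complex V and above PC in complex III.

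Nuclear-encoded subunits of complex I had a median log2 fold change of -0.17 over 36 genes, of which 13 were above 0 and 23 below. Both HC libraries were below both PC libraries in 15 genes (41.7%) and above in 5 (13.9%), beside 33.3% and 27.7% of all genes, and 0 of 36 passed edgeR's test in either direction. The extremes were Ndufc1 and Ndufs8. Ndufc1, a small subunit of the membrane arm and the most abundant of the 36 by TPM, had PC values of 27.3 and 35.9 CPM and HC values of 76.6 and 32.9 CPM and a log2 fold change of 0.79 ± 0.46 (adjusted p = 0.337 with edgeR). HC replicate 3 alone was high, HC replicate 4 lay between the PC libraries, and the groups overlapped, while it was 1.23 without HC replicate 4 (adjusted p = 0.0153 with edgeR) and 0.03 without HC replicate 3. Ndufs8, which carries iron-sulphur clusters in the matrix arm, had PC values of 19.7 and 12.2 CPM and HC values of 4.87 and 6.75 CPM. The groups did not overlap, and the log2 fold change of -1.45 ± 0.47 missed the threshold (adjusted p = 0.119 with edgeR), except without HC replicate 3 (-1.27, adjusted p = 0.0455 with edgeR) or HC replicate 4 (-1.76, 0.0136). Summed TPM of the 36 was 2873 and 2623 in PC and 1713 and 1978 in HC, without overlap (exact permutation p = 0.333). On the CPM scale the sums overlapped, at 1076 and 1106 in PC and 1162 and 899 in HC, so the separation of the sums depended on the scale. The log2 difference of summed TPM was -0.58 for the nuclear subunits of complex I. For complexes II, III, IV and V it was -0.65, -0.38, -0.22 and -0.51. The median log2 fold change of all genes on the TPM scale was -0.51.

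Complex II, the 4 genes of succinate dehydrogenase that also serve the citric acid cycle, overlapped between groups in all 4 genes on the CPM scale. Sdha, the flavoprotein that oxidises succinate, had PC values of 74.5 and 102 CPM and HC values of 113 and 96.3 CPM, and Sdhc, a membrane anchor, had PC values of 47.3 and 33.6 CPM and HC values of 18.8 and 38.6 CPM. The log2 fold changes were 0.24 ± 0.31 and -0.49 ± 0.44 (adjusted p = 0.667 and 0.526 with edgeR). Without HC replicate 4 Sdhc was at -1.15 (adjusted p = 0.036 with edgeR), and without HC replicate 3 at -0.10. Summed TPM of the 4 was 263 and 217 in PC and 139 and 168 in HC, without overlap, while summed CPM was 184 and 192 in PC and 218 and 167 in HC, with overlap. The sign for Sdha turned with the scaling, to -0.02 with library size alone and -0.36 on the TPM scale.

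Among the 8 nuclear subunits of complex III the median was 0.01, with 4 above 0 and 4 below. Summed TPM was 1065 and 832 in PC and 620 and 848 in HC, with overlap. Summed CPM was 292 and 281 in PC and 378 and 299 in HC, higher in both HC libraries. Uqcrb, known as the ubiquinone-binding protein and the most abundant by TPM, had PC values of 58 and 76.2 CPM and HC values of 144 and 100.2 CPM. Its HC values were both higher, and the log2 fold change of 0.86 ± 0.33 missed the threshold (adjusted p = 0.169 with edgeR), except without HC replicate 4 (1.05, 0.0354), and was 0.55 without HC replicate 3. Uqcr11, a small subunit of the complex, had PC values of 25.4 and 7.03 CPM and HC values of 2.52 and 5.09 CPM. PC replicate 1 was far above the other libraries, from 873 counts against 271 in PC replicate 2, 31 in HC replicate 3 and 113 in HC replicate 4. Its log2 fold change was -2.08 ± 0.75 (adjusted p = 0.149 with edgeR; 0.0496 with DESeq2, and 0.0265 and 0.018 with edgeR without PC replicate 2 and without HC replicate 4). Without PC replicate 1 it was -0.92 and did not pass.

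ATP synthase, complex V, had 16 nuclear genes tested, with a median of -0.05, 7 above 0 and 9 below. Atp5b, the catalytic beta subunit, was the most abundant nuclear member of all at 768 TPM and had PC values of 445 and 444 CPM and HC values of 282 and 302 CPM. The 2 PC libraries were nearly equal and both HC libraries were lower, and the log2 fold change of -0.61 ± 0.29 missed the threshold (adjusted p = 0.246 with edgeR). Atp5mpl, a small membrane subunit, had PC values of 38.5 and 54.2 CPM and HC values of 172 and 50.2 CPM, where HC replicate 3 alone was high. Its log2 fold change of 1.26 ± 0.60 (adjusted p = 0.244 with edgeR) was 0.08 without that library and 1.84 without HC replicate 4 (adjusted p = 0.0037 with edgeR). The genes Atp5g1, Atp5g2 and Atp5g3 encode the same mature subunit c of the rotating ring. Atp5g3 had PC values of 84.9 and 96.5 CPM and HC values of 112 and 71.1 CPM, Atp5g1 had PC values of 70.9 and 64.6 CPM and HC values of 62.3 and 44.9 CPM and Atp5g2 had PC values of 45.6 and 18.8 CPM and HC values of 6.66 and 18.8 CPM. Atp5g1 was lower in both HC libraries, and the other two overlapped between groups. The log2 fold changes were 0.01 ± 0.33, -0.34 ± 0.31 and -1.33 ± 0.65 (adjusted p = 0.99, 0.532 and 0.255 with edgeR), and the sign for Atp5g3 turned to -0.29 with library size alone and to -0.61 on the TPM scale. Atp5g2 was at -2.32 without HC replicate 4 (adjusted p = 0.0105 with edgeR), -0.81 without HC replicate 3 (0.243) and -0.59 without PC replicate 1, and Atp5g3 at -0.38 without HC replicate 3.

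The complex IV group held the only call, that of Ndufa4l2, in a set of 15 nuclear genes tested with a median of -0.08. Summed TPM of the nuclear genes of complex IV was 2664 and 2652 in PC and 2292 and 2262 in HC, without overlap, while summed CPM was 716 and 786 in PC and 1160 and 736 in HC, with overlap. Ndufa4l2 is related to Ndufa4, which was once listed under complex I and is now counted as a subunit of complex IV. It was grouped here with Ndufa4, and whether its own protein is part of complex IV was not tested. Ndufa4l2 is known as a target of hypoxia-inducible factors. Ndufa4l2 lies at chr10:127514967-127517154 on the plus strand and Ndufa4 at chr6:11900292-11907497 on the minus strand (mm10, GENCODE M21). Their coding sequences are shown, spliced from exons in the annotation's transcripts, because reads of relatives can be misassigned. Capitals mark the 167 of 237 aligned bases (70.5%) that are the same in both, and the longest shared run is 28 bases.
Ndufa4l2: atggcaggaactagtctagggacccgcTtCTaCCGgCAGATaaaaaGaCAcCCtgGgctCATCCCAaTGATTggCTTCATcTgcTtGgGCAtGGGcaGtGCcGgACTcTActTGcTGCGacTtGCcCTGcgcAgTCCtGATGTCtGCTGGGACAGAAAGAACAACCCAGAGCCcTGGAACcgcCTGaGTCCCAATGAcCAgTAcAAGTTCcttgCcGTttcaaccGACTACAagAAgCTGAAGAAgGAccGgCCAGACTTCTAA
Ndufa4: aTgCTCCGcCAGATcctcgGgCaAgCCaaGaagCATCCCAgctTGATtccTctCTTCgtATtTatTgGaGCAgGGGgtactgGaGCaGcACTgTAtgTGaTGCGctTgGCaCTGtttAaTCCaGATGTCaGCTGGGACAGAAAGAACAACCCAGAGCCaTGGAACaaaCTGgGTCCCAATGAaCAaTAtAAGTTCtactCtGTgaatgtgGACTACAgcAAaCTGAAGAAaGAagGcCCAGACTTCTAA

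Ndufa4l2 had 1645 and 1024 counts in PC and 51 and 36 in HC, or PC values of 47.8 and 26.6 CPM and HC values of 4.14 and 1.62 CPM. The HC libraries were far below the PC libraries. The log2 fold change was -3.72 ± 0.61 and the gene fell (adjusted p = 0.0394 with edgeR). Leaving out any 1 library gave -3.21 to -4.55 with the call kept, and DESeq2 gave an adjusted p of 1.09e-07. The call was lost with library size alone (adjusted p = 0.0515 with edgeR), with a length offset (0.0512), with the trend on GC content removed (0.0523) and with limma on log2(TPM + 0.1) (0.0712), all in the same direction. Of the 3 annotated transcripts, the protein-coding one held 862 and 554 estimated counts in PC and 34.9 and 36 in HC, and a processed transcript of 377 bases held 752 and 443 in PC and 16.1 and 0 in HC. The gene overlaps Shmt2, on the opposite strand, by 32 bases. Ndufa4 had PC values of 29.6 and 41.5 CPM and HC values of 82.9 and 26.8 CPM, with overlap between groups, a log2 fold change of 0.62 ± 0.56 (adjusted p = 0.529 with edgeR) and -0.44 without HC replicate 3, against 1.17 without HC replicate 4 (adjusted p = 0.0208 with edgeR).

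Cox4i2 is a subunit of complex IV that is also known for induction at low oxygen, where it takes the place of Cox4i1. It had 288 and 173 counts in PC and 52 and 13 in HC, or PC values of 8.37 and 4.49 CPM and HC values of 4.22 and 0.585 CPM. HC replicate 4 was far below the rest and HC replicate 3 just below PC replicate 2. The log2 fold change of -1.44 ± 1.01 missed the threshold (adjusted p = 0.418 with edgeR), and without HC replicate 3 it was -3.48 (adjusted p = 0.00353 with edgeR). It was -0.65 without HC replicate 4 (adjusted p = 0.323 with edgeR) and -0.95 without PC replicate 1. Cox4i1 had PC values of 46.6 and 40.8 CPM and HC values of 33.9 and 65.7 CPM, with the groups overlapping and a log2 fold change of 0.19 ± 0.39 (adjusted p = 0.797 with edgeR) that turned to -0.02 with library size alone, -0.23 on the TPM scale and -0.41 without HC replicate 4.

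**Figure D4:**
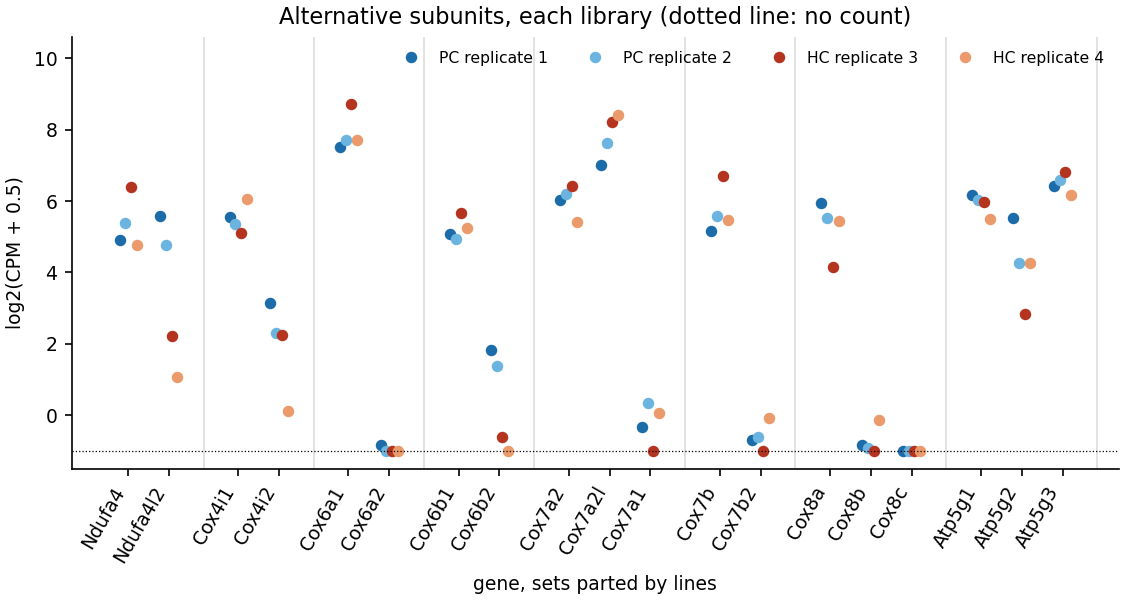
Log2(CPM + 0.5) of alternative subunits of complex IV and related genes, and of the 3 genes for subunit c of complex V, with 1 point per library and the dotted line at no count. Ndufa4l2 is lower in both HC libraries, and the muscle forms Cox6a2, Cox7a1 and Cox8b are low in all 4 libraries and at the line in HC replicate 3.

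The remaining sets of complex IV were dominated by the forms found in most tissues. Cox6a1 was the most abundant nuclear subunit of the complex by TPM (674) and had PC values of 182 and 208 CPM and HC values of 423 and 209.8 CPM. Its partner of heart and muscle, Cox6a2, had 2 counts in PC replicate 1 and 0 in the other 3 libraries. Cox8a had PC values of 60.6 and 45.2 CPM and HC values of 17.3 and 43.2 CPM, against 2 and 1 counts in PC and 0 and 9 in HC for the muscle form Cox8b and 0 in every library for the testis form Cox8c. Cox7a2 had PC values of 64.3 and 72.6 CPM and HC values of 85.4 and 42.2 CPM, while the muscle form Cox7a1 had 10 and 30 counts in PC and 0 and 12 in HC. Cox7b had PC values of 35.4 and 47.2 CPM and HC values of 104 and 43.7 CPM, and Cox7b2, its testis form, 4 and 6 counts in PC and 0 and 10 in HC. The log2 fold changes were 0.70 ± 0.41 for Cox6a1, 0.84 ± 0.47 for Cox7b, -0.80 ± 0.49 for Cox8a and -0.10 ± 0.40 for Cox7a2 (adjusted p = 0.337, 0.316, 0.349 and 0.899 with edgeR). Without HC replicate 4 the first 3 passed, at 1.07, 1.29 and -1.66 (adjusted p = 0.0397, 0.0139 and 0.00787 with edgeR), and Cox7a2 turned to 0.27. Without HC replicate 3 they were at 0.07, 0.05 and -0.33 (adjusted p = 0.89, 0.925 and 0.507 with edgeR) and Cox7a2 at -0.73.

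Cox6b2, the testis form of Cox6b1, had 186 counts in the 2 PC libraries and 2 in the 2 HC libraries. Per library the counts were 105 and 81 in PC and 2 and 0 in HC. That is a 44.0-fold lower level (exact Clopper-Pearson 95% interval 12.0 to 366, counting error only), and the test missed the threshold (adjusted p = 0.114 with edgeR; 0.0208 with DESeq2, 0.0496 with limma on log2(TPM + 1)). Leaving out a library gave an edgeR adjusted p of 0.0014 (HC replicate 3), 0.00797 (HC replicate 4), 0.995 (PC replicate 1) or 0.674 (PC replicate 2). Cox6b1 had PC values of 33.3 and 29.9 CPM and HC values of 50.6 and 37.5 CPM, with both HC libraries higher and a log2 fold change of 0.48 ± 0.31 (adjusted p = 0.385 with edgeR). Cox6c, a structural subunit with the largest positive value of the nuclear complex IV genes, had PC values of 72.7 and 135 CPM and HC values of 227 and 165 CPM. HC was higher in both libraries, and its log2 fold change of 0.92 ± 0.40 missed the threshold (adjusted p = 0.212 with edgeR).

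Among members that are no subunits of the complexes, Cox7a2l, which helps to join complexes III and IV into supercomplexes, had PC values of 127 and 198 CPM and HC values of 299 and 340.2 CPM. Both HC libraries were above both PC libraries, and the log2 fold change was 0.97 ± 0.34 (adjusted p = 0.142 with edgeR; 0.0382 with DESeq2). The 8 complex I assembly factors of the Ndufaf series had a median of -1.18, the lowest of the groups. Values ran from -3.45 to 0.31, 6 of 8 were below 0, and 5 lay lower in both HC libraries, beside 33.3% of all genes. In edgeR's test 0 of 8 passed and 2 had an unadjusted p under 0.05, beside 27% of all genes. Their levels summed to 54.5 and 57.2 CPM in the PC libraries and to 42.4 and 37.5 CPM in the HC libraries, without overlap.

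Base composition went with the direction of change within the nuclear-encoded subunits. Across the 79 genes tested, the log2 fold change had a Pearson's r of -0.43 and a Spearman's rho of -0.48 with the GC content of their transcripts, where all 16598 genes with a GC value had -0.17 and -0.22. These correlations are across genes, which are not independent replicates and share the same 4 libraries. Of the 27 subunits lowest in GC (39.5% to 49.0%), 19 had a positive log2 fold change and the median was 0.24. The 26 highest in GC (54.5% to 61.1%) had 5 positive values and a median of -0.49, and the 26 between had -0.17. The same order was seen over all genes, whose medians in 5 equal groups by GC ran from 0.36 in the lowest to -0.52 in the highest. It lay mostly in PC replicate 1 and HC replicate 3, as deviations of log2 CPM from each gene's mean showed. In PC replicate 1 the subunits' median deviation went from -0.55 in the lowest group to 0.52 in the highest. In HC replicate 3 it went from 0.58 to -0.25. In PC replicate 2 it went from -0.07 to 0.11, and in HC replicate 4 from -0.26 to -0.20. Over all genes it went from -0.22 to 0.48 in PC replicate 1 and from 0.25 to -0.43 in HC replicate 3, in the same directions as the subunits. In PC replicate 2 it went from -0.02 to 0.07. In HC replicate 4 it went from 0.03 to -0.07, the other way from the subunits, which were below 0 at both ends.

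Mitochondrial transcripts are poor in GC, at 31.9% to 41.1%. The 1539 nuclear genes in that range had a median of 0.53, against 0.97 for the 13 mitochondrial genes. With the trend of each library on GC content removed, an alternative added after the data were seen, the mitochondrial median was 0.55 and the nuclear-encoded subunits' median 0.12, with 11 of 13 mitochondrial genes above 0. The exceptions were mt-Co3 and mt-Nd4, each at -0.01. In that fit 0 members passed edgeR's test beside 3.43% of all genes higher and 1.63% lower, and 9 had an unadjusted p under 0.05, beside 27.2% of all genes. The gap between the 2 genomes was then 0.43 in place of 1.05. With transcript length, the subunits' log2 fold change had a rho of -0.14.

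**Figure D5:**
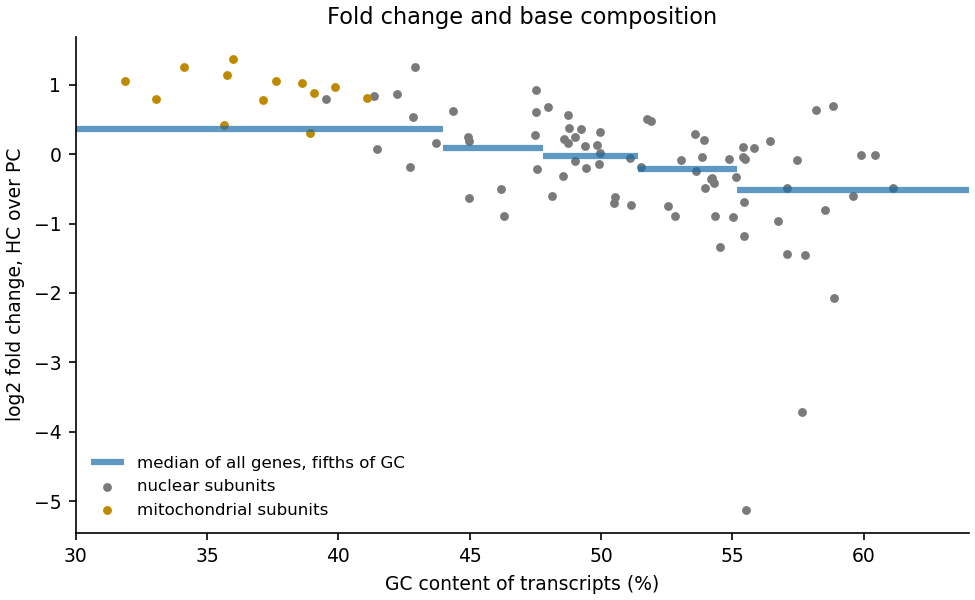
Log2 fold change of HC over PC against the GC content of a gene's transcripts in percent, for nuclear-encoded and mitochondrial subunits, with horizontal bars for the medians of all genes in 5 equal groups by GC (the outer bars are drawn only within the axis). The all-gene medians run from 0.36 at the left to -0.52 at the right, and the nuclear-encoded subunits have an r of -0.43.

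The genes that build and regulate the chain were described from lists. Of 9 complex I assembly factors outside the naming rule, 3 of complex II, 6 of complex III, 19 of complex IV and 3 of complex V tested, 0 passed edgeR's test. Their medians were -0.21, 0.11, -0.75, 0.22 and -0.50 in that order, beside -0.04 for all genes. In complex IV assembly, Cox20, a chaperone for mt-Co2, had PC values of 6.22 and 9.86 CPM and HC values of 33.7 and 24.8 CPM and Coa4, an assembly factor, had PC values of 8.37 and 11.3 CPM and HC values of 33.3 and 21.2 CPM. Both were higher in both HC libraries, with log2 fold changes of 1.86 ± 0.41 and 1.47 ± 0.41 that missed edgeR's threshold (adjusted p = 0.0618 and 0.0922; 0.0018 and 0.0189 with DESeq2). They passed edgeR's test without HC replicate 3 (adjusted p = 0.0112 and 0.0436) and without HC replicate 4 (0.00326 and 0.00485), but not without a PC library. In complex III assembly, Bcs1l, which inserts the iron-sulphur subunit, and Uqcc2, which acts in the making of mt-Cytb, had -1.78 ± 0.92 and -2.40 ± 1.29 (adjusted p = 0.278 and 0.296 with edgeR). Bcs1l was at -3.66 without HC replicate 3 (adjusted p = 0.00105 with edgeR) and -1.01 without HC replicate 4 (0.0897), and Uqcc2 at -1.53 (0.0642) and -6.35 (0.00159). For complex I these were -1.09 ± 0.47 for Ecsit and 0.76 ± 0.44 for Tmem126b (adjusted p = 0.205 and 0.335 with edgeR). Ecsit passed without HC replicate 3 (-1.27, adjusted p = 0.0452 with edgeR) and Tmem126b without HC replicate 4 (1.06, 0.0393). For complexes II and V they were 0.45 ± 1.04 for Sdhaf3, -0.29 ± 0.44 for Sdhaf1, -0.71 ± 0.39 for Atpaf2 and -0.50 ± 0.44 for Atpaf1, with edgeR adjusted p of 0.819, 0.724, 0.307 and 0.525. Sdhaf3 turned to -1.99 without HC replicate 3 (adjusted p = 0.0239 with edgeR) and was 1.28 without HC replicate 4 (0.0339).

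Of 14 genes for cytochrome c and ubiquinone synthesis 0 passed edgeR's test, 2 had a positive value and the median was -0.70. Coq4, of ubiquinone synthesis, had 152 and 75 counts in PC and 1 and 13 in HC, and Coq6, of the same pathway, had 127 and 160 in PC and 0 and 19 in HC. Both were low in HC, and neither passed (adjusted p = 0.169 and 0.246 with edgeR), except without HC replicate 3 (0.0304 and 0.0167) or HC replicate 4 (0.00573 and 0.00129). Of 26 genes for upkeep and transcription of mitochondrial DNA 0 passed, 11 had a positive value and the median was -0.24. Tefm, the elongation factor of mitochondrial transcription, had 123 and 76 counts in PC and 0 in both HC libraries, at least 31.4-fold lower when HC is set to a floor of 3 counts for the group. It missed the threshold (adjusted p = 0.0597 with edgeR; 0.00122 with DESeq2). Rrm2b, which supplies nucleotides to mitochondrial DNA in cells that do not divide, had PC values of 10.1 and 9.66 CPM and HC values of 25.9 and 28.2 CPM, and its log2 fold change of 1.45 ± 0.34 missed the threshold (adjusted p = 0.0677 with edgeR; 0.00535 with DESeq2). Tefm and Rrm2b passed edgeR's test without HC replicate 3 (adjusted p = 0.00155 and 0.00802) and without HC replicate 4 (0.00325 and 0.0111).

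Among the nuclear regulators of mitochondrial genes 1 of 12 tested was higher and 1 lower, beside 2.75% and 1.96% of all genes, and both belong to the PGC-1 family of coactivators. Ppargc1a, the coactivator PGC-1alpha that promotes mitochondrial biogenesis, had PC values of 3.52 and 6.02 CPM and HC values of 41.2 and 113 CPM. Both HC libraries were above both PC libraries, and it rose, with a log2 fold change of 4.01 ± 0.62 (adjusted p = 0.037 with edgeR). Pprc1, a related coactivator known from growing and dividing cells, had PC values of 144 and 106 CPM and HC values of 23.2 and 14.54 CPM. It was lower in both HC libraries and fell, with -2.73 ± 0.38 (adjusted p = 0.0359 with edgeR). With library size alone neither passed (adjusted p = 0.0563 and 0.0515 with edgeR). Limma on log2(TPM + 1) gave 0.0896 for Ppargc1a, and limma on log2(TPM + 0.1) gave 0.115 and 0.0712. The median of the 12 was 0.31.

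Targets of hypoxia-inducible factors, the family of genes to which Ndufa4l2 is known to belong, had a median of -0.84 over 22 tested, with 6 positive values. Both HC libraries were lower in 14 (63.6%) and higher in 6 (27.3%), beside 33.3% and 27.7% of all genes, and 1 passed. That was Mxi1, a repressor of the Myc network, with PC values of 14 and 15.2 CPM and HC values of 59 and 113 CPM, a log2 fold change of 2.56 ± 0.41 and an edgeR adjusted p of 0.0392. Its call was lost with library size alone (0.0675) and with limma on TPM (0.147 and 0.173).

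Promoters of the nuclear members were searched for 3 motifs that are known from respiratory genes. RefSeq promoter sequences (GRCm38.p6), 250 bases before to 50 after the start, were matched for 74 nuclear members and 27025 genes in all, and both strands were read. The motif of NRF1, written GCGCANGCG, was in 29.7% of the members and 7.03% of all genes. This form was chosen after a form longer by 1 base at its 3′ end had been searched and its shares seen, which were lower in both the members and all genes. The ETS motif CCGGAAG, bound by GABP, was in 24.3% and 9.93%, and the YY1 motif AAGATGGCG in 10.8% and 1.64%. A match describes letters only and is no proof of binding. Members with and without each motif had median log2 fold changes of -0.10 (22 genes) and -0.14 (50) for NRF1, 0.10 (18) and -0.20 (54) for ETS, and 0.16 (8) and -0.20 (64) for YY1. The 250 bases before the start of Cox6a1 (chr5:115348959-115349208, minus strand, GRCm38.p6) are shown as the most abundant complex IV subunit with more than 1 motif. Capitals mark the NRF1 motif at 2 places, the first of which reads the same on both strands, and the ETS motif, read from the other strand.
Cox6a1: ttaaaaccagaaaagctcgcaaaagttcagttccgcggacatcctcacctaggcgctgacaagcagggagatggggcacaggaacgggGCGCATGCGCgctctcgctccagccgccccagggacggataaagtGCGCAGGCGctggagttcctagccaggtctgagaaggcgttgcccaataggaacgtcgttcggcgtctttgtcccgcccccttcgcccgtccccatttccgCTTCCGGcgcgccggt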

How the data were processed

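RNA was measured in 2 PC and 2 HC libraries, grouped by their labels. The submitters' processing notes name Trimmomatic 0.36, kallisto 0.43.1 and mm10, and no source used here gives the strand setting. Per the file headers, the deposited tables give an estimated count and a TPM value per transcript, with which reads of near-identical sequences are shared out by estimate. Transcripts were matched to GENCODE M21 by identifier (107987 of 109282; unmatched ones held 0.362% to 0.534% of counts), and their estimated counts were added up by gene and rounded. Genes passing filterByExpr were scaled by the trimmed mean of M values (TMM) and tested with edgeR 4.0.16 (quasi-likelihood F-test, Benjamini-Hochberg over all genes), after a check on simulated data. "Passed", "rose" and "fell" refer to that test. The standard error is the fold change divided by the root of F. The members, lists and naming rule were chosen with earlier results of these data known. Named were all mitochondrial genes, members that passed, the most abundant, highest and lowest nuclear gene of each complex, isoform sets, and up to 4 genes per list that passed or else the 2 with the lowest p. Copies of mitochondrial genes were found with blastn 2.17.0. DESeq2 1.42.0 and limma 3.58.1 (log2(TPM + 1) and log2(TPM + 0.1)) were alternatives, with R 4.3.3; Python 3.11.15 was used with matplotlib 3.10.9, SciPy 1.17.1, NumPy 2.4.6 and pandas 2.3.3. Libraries of a group were not copies, with a chi-square per degree of freedom of 102 in PC and 193 in HC. Intervals and floors hold for counting error only, because reads after amplification are not independent molecules. Of the members, 36 overlap another gene, 29 of them on the opposite strand.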

Additional observations from a re-analysis of the deposited data

How the results depend on the processing

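No paired analysis was possible because PC replicates are numbered 1 and 2 and HC replicates 3 and 4, so no number is shared. The median of all genes went from -0.04 to -0.29 with library size alone, and to -0.51 and -0.64 with limma on log2(TPM + 1) and log2(TPM + 0.1). It was -0.25 with no filter and -0.20 with DESeq2, both over 24150 genes in place of 16607. Genes called went from 782 to 3065 with DESeq2, 0 with library size alone (4394 at an unadjusted p under 0.05), 1928 with no filter, 433 with a length offset, and 272 and 0 with the 2 forms of limma (3912 and 3571 at an unadjusted p under 0.05). Without 1 library they ranged from 638 to 7106. Members called higher were 3 with DESeq2 and 0 to 14 without 1 library. Members called lower were 3 with DESeq2, 0 with library size alone, length offset, GC trend removed or limma on log2(TPM + 0.1), 2 with limma on log2(TPM + 1), and 1 to 18 without 1 library. The median of nuclear-encoded subunits was -0.34 with library size alone, -0.63 with both forms of limma, 0.12 with the GC trend removed and -0.32 to -0.042 without 1 library. That of mitochondrial genes was 0.34 with both forms of limma and 0.38 to 1.28 without 1 library.

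Signs turned for 9 named genes, with a call at the turned setting only for Sdhaf3 without HC replicate 3. With library size alone Atp5g3, Cox4i1 and Sdha were at -0.29, -0.022 and -0.023. With limma on log2(TPM + 1) and log2(TPM + 0.1), Atp5g3 was at -0.61 and -0.61, Cox4i1 at -0.23 and -0.24, Sdha at -0.36 and -0.36, Sdhaf3 at -0.51 and -1.04, mt-Co3 at -0.25 and -0.25, and mt-Nd4 at -0.038 and -0.038. Atp5g3 was at -0.022 with no filter. With a length offset Atp5g3, Atpaf1 and Sdhaf3 were at -0.13, 0.041 and -0.0026. With the GC trend removed mt-Co3 and mt-Nd4 were at -0.014 and -0.0067. Without PC replicate 1 Atp5g3 was at -0.12 and Sdha at -0.0043. Without HC replicate 3 Atp5g3, Ndufa4 and Sdhaf3 were at -0.38, -0.44 and -1.99 (edgeR adjusted p of the last 0.0239). Without HC replicate 4 Cox4i1 was at -0.41 and Cox7a2 at 0.27. Over the fits without 1 library the highest or lowest values on the other side were 0.25 for Atp5g3, 0.56 for Cox4i1, -0.73 for Cox7a2, 1.17 for Ndufa4, 0.46 for Sdha and 1.28 for Sdhaf3 (adjusted p of the last 0.0339 with edgeR). The cause was not tested for any of these. Of 702 values of 54 named genes, 28 turned, 51 newly passed, 27 of them without HC replicate 4, and 12 no longer passed. With 2 libraries a group and 2 residual degrees of freedom, small differences could not be resolved, and HC depth limits the genes with few counts.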

Other observations

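A further copy of mitochondrial DNA, Gm28661, is identical to mt-Co2 over 681 bases. It had 2.39 and 294 estimated counts in PC and 9978 and 22346 in HC, and its log2 fold change of 7.88 missed the threshold (adjusted p = 0.067 with edgeR). Gm10925 and Gm28437, identical to stretches of mt-Atp6 and mt-Co3, had 0 counts in all 4 libraries. Of 9 candidate copies listed that matched a gene, 7 were tested, 0 passed and all 7 were higher in both HC libraries, beside 27.7% of all genes. The list leaves out further copies found by the sequence search, such as Gm11512 and Gm4076, and holds Gm11478, which that search did not return. The share of 7 is thus no measure of all copies.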
